A study of Mus musculus with 8 samples.

Results

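The subject here is 10 genes of fatty acid uptake and mitochondrial beta-oxidation, taken by their symbols from a table of 48328 Ensembl genes. All 10 of the named genes were found and all 10 were tested. They are Cd36 and Fabp3 for uptake, Acsl1 for activation, Cpt2 for entry through the carnitine shuttle, Acadm, Acadl and Acadvl for the first dehydrogenation, Hadh and Hadhb for the later steps, and Etfdh for the transfer of electrons to ubiquinone. RNA was measured in the tibialis anterior, a mostly fast muscle at the front of the shin, of 4 K320E-skm and 4 wild-type mice, all C57BL/6J and 24 months old. The mutation is known from background, not from the labels: in skeletal muscle these mice make the helicase Twinkle, which unwinds mitochondrial DNA for its replication, with a K320E exchange that acts dominantly. What restricts the mutant protein to muscle is not given in the sources used here. In each genotype 2 mice were labelled male and 2 female, and the question was how old muscle with the mutant protein differs from wild-type muscle.

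Long-chain fatty acids reach muscle from the blood. They cross the membrane with the help of CD36, are carried in the cytosol by the heart-type binding protein FABP3, and are joined to coenzyme A by ACSL1. The acyl groups pass the inner mitochondrial membrane as carnitine esters, and CPT2 turns them back into acyl-CoA in the matrix. Each round of beta-oxidation then shortens the chain by a dehydrogenation, a hydration, a second dehydrogenation and a thiolytic cleavage. Slow and oxidative fibres depend on this route more than fast glycolytic fibres do. In humans, inherited loss of CPT2, ACADVL, ACADM, HADHB or ETFDH function causes disorders of fatty acid oxidation, several of which affect muscle.

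Since the 10 genes are compared further on for how alike they varied, upstream sequences of 3 of them are shown from RefSeq (GRCm38.p6), 5′ to 3′ on the strand of the gene. All 10 genes matched a RefSeq promoter, Acsl1 with a pair of starts, which gave 11 windows of 250 bases before the start. The letters AGGTCA, 1 repeat of the element to which nuclear receptors such as the PPARs bind, occurred on either strand in the windows of 3 genes, Acadm, Acadvl and Cd36, and in 14.0% of all 32851 windows of that length. The full direct repeat AGGTCANAGGTCA was in none of the 11 windows and in 0.0335% of all windows. The GC box GGGCGG, on either strand, was in the windows of 6 genes, Cd36, Acsl1, Cpt2, Acadl, Hadh and Hadhb, and in 32.7% of all windows. A match of letters is a description only. Shown first are Acadm (chr3:153944644-153944893, minus strand), whose hexamer lies farthest upstream, and Cd36 (chr5:17835897-17836146, minus strand), whose window lies within the span of the gene in GENCODE M21 and overlaps no annotated exon. In both, capitals mark the hexamer.
Acadm: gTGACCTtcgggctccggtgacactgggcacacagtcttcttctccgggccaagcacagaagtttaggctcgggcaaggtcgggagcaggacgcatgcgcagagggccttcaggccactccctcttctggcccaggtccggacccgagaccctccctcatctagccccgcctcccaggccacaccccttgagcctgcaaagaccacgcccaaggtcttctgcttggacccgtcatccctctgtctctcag
Cd36: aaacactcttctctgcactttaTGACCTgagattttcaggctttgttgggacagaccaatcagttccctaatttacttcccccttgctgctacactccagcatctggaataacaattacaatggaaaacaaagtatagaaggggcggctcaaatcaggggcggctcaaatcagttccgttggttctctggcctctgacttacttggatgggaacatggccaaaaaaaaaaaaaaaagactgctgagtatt

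Hadhb is shown because it shares its upstream region with Hadha, the gene of its partner subunit. The genes point away from each other on chromosome 5, and in GENCODE M21 only 85 bases lie between them. These bases (chr5:30155163-30155247, plus strand) are given in full, with 2 GC boxes in capitals.
Hadhb: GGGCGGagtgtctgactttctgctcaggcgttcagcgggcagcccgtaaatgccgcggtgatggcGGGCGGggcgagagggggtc

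Levels are in FPKM, fragment numbers scaled to the length of the transcript and to all mapped fragments of the library. The table holds no read counts, the FPKM sums were 731824 to 858029, and absolute depth is unknown. Relative depth, read from the smallest values, lay between 1.00 and 1.30. Twnk, the gene of Twinkle, was at a mean of 4.62 ± 0.557 FPKM in the K320E-skm mice, against 2.37 ± 0.245 FPKM in the wild-type mice (SD, n = 4 each). The sex label of 1 library was contradicted by its transcripts: K320E-skm 4, labelled male, had 10.2 FPKM of Xist and at most 0.0478 FPKM of the Y-linked genes Kdm5d, Eif2s3y, Ddx3y and Uty, while the other 7 libraries matched their labels. The main results are therefore also given without it. The ribosomal RNAs of mitochondria held 41.5% to 46.9% of the FPKM sum in K320E-skm and 31.2% to 37.5% in wild-type libraries, and the median log2 fold change of all tested genes was −0.14. The part of the ribosomal share in that shift was not tested. The muscle genes Ckm, Myl1, Tcap, Mb and Des summed to 12235 to 14642 FPKM across K320E-skm and 14160 to 16544 FPKM in wild-type libraries.

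For none of the 10 genes was a difference between the genotypes larger than the spread between mice detected. In limma over 10521 genes no gene of the set passed an adjusted p of 0.05, against 2 of all tested genes (0.0190%), the short RNA genes Gm24157 and Gm25852. None of the 10 reached an unadjusted p of 0.05 either, which 1383 of all tested genes did (13.1%), and with 10 genes that count is near the background. Their adjusted p ran from 0.570 to 0.955. All 10 overlapped between the genotypes, whereas 0.333% of tested genes lay without overlap higher and 9.59% without overlap lower in K320E-skm muscle. The sum of the 10 genes was 601, 796, 1080 and 771 FPKM in libraries K320E-skm 1 to 4, against 867, 734, 762 and 906 FPKM in libraries wild-type 1 to 4. Its mean was 812 ± 198 FPKM in K320E-skm mice, against 817 ± 82.2 FPKM in wild-type mice (SD, n = 4 each; exact two-sided permutation p = 1).

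Among the uptake genes, Cd36 (ENSMUSG00000002944, chromosome 5, 17781690 to 17888801, GRCm38) stood at 95.04, 123, 141 and 100.5 FPKM in libraries K320E-skm 1 to 4, against 117, 102, 106 and 117 FPKM in libraries wild-type 1 to 4. The 4 wild-type libraries lay within the range of the K320E-skm libraries. The log2 fold change of FPKM + 1, K320E-skm minus wild-type, was 0.04 (95% interval −0.29 to 0.38; limma adjusted p = 0.908). Cd36 is also expressed by capillary endothelium, adipocytes and macrophages, and in bulk RNA fewer cells of a type and less RNA per cell cannot be told apart. Fabp3 (ENSMUSG00000028773, chromosome 4, 130308595 to 130315463) was the most abundant of the 10 genes. It stood at 143, 183, 338 and 190 FPKM in libraries K320E-skm 1 to 4, against 258, 191, 173 and 233 FPKM in libraries wild-type 1 to 4. K320E-skm mice thus held both the lowest and the highest value, 2.35-fold apart, and the log2 fold change was −0.06 (95% interval −0.61 to 0.49; limma adjusted p = 0.923), the widest interval of the set.

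Acsl1, the acyl-CoA synthetase of activation (ENSMUSG00000018796, chromosome 8, 46471037 to 46536051), had 39.0, 52.7, 67.0 and 65.8 FPKM in libraries K320E-skm 1 to 4, against 51.2, 49.1, 44.3 and 62.6 FPKM in libraries wild-type 1 to 4. Its log2 fold change was 0.09 (SE 0.19; limma adjusted p = 0.826), and without K320E-skm 4 it was −0.05. Cpt2, the inner-membrane carnitine palmitoyltransferase (ENSMUSG00000028607, chromosome 4, 107903981 to 107923610), had the lowest levels of the set. It was at 10.3, 16.2, 22.3 and 16.5 FPKM in libraries K320E-skm 1 to 4, against 15.4, 17.2, 14.3 and 17.9 FPKM in libraries wild-type 1 to 4. The wild-type libraries again fell between the extremes of the K320E-skm libraries, and the log2 fold change was −0.03 (SE 0.17; limma adjusted p = 0.944).

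**Figure D1:**
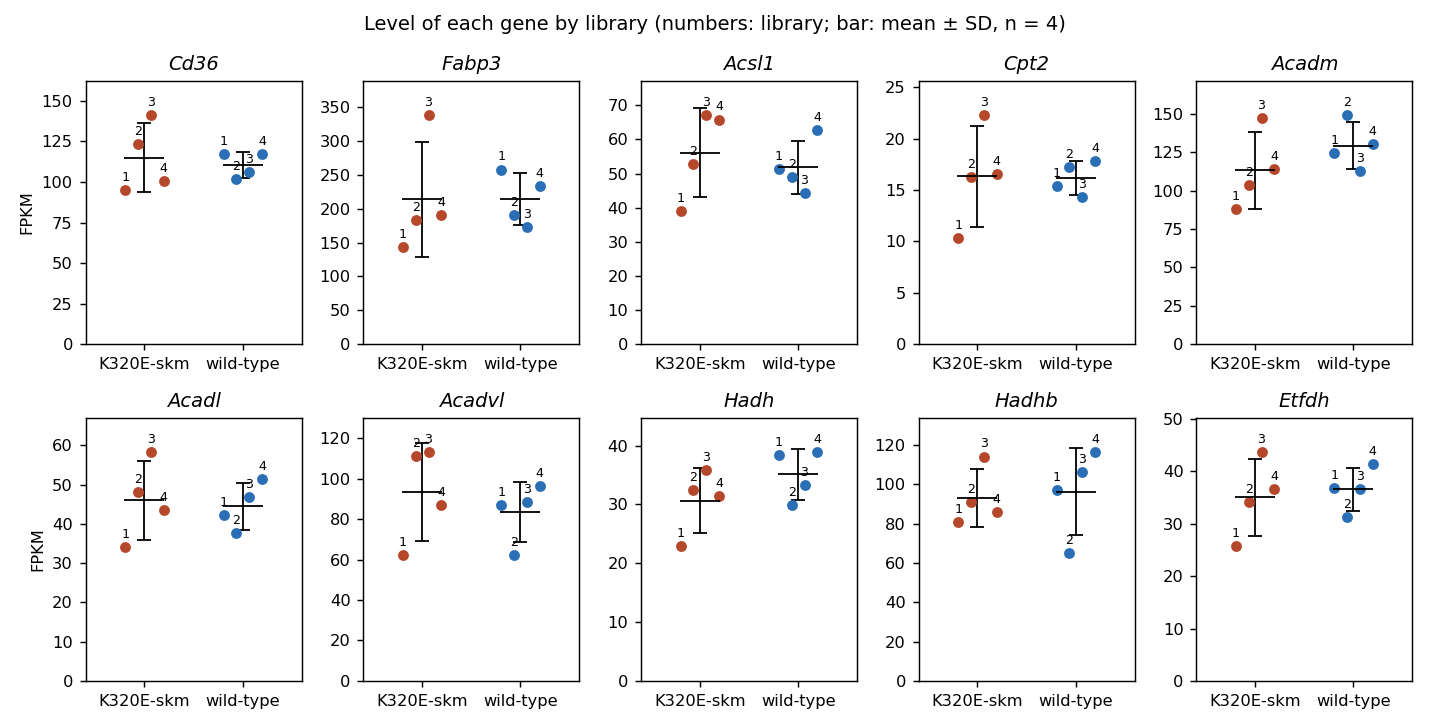
FPKM of the 10 genes, one panel each, with the 4 K320E-skm libraries left of the 4 wild-type libraries; points are libraries with their number, and bars the mean ± SD (n = 4). The genotypes overlap in all 10 panels, and K320E-skm 1 is the lowest of 8 libraries in 9 of them.

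The acyl-CoA dehydrogenases carry out the first step for chains of different length, ACADVL for very long, ACADL for long and ACADM for medium chains. Acadvl (ENSMUSG00000018574, chromosome 11, 70010183 to 70015411) stood at 62.1, 111, 113 and 86.9 FPKM in libraries K320E-skm 1 to 4, against 86.9, 62.2, 88.5 and 96.4 FPKM in libraries wild-type 1 to 4. Its log2 fold change of 0.14 was the highest of the 10 (95% interval −0.34 to 0.62; limma adjusted p = 0.774). One library in each genotype, K320E-skm 1 and wild-type 2, was near 62 FPKM. Acadl (ENSMUSG00000026003, chromosome 1, 66830839 to 66863277) stood at 34.0, 48.2, 58.3 and 43.5 FPKM in libraries K320E-skm 1 to 4, against 42.3, 37.6, 46.8 and 51.4 FPKM in libraries wild-type 1 to 4, with a log2 fold change of 0.03 (SE 0.17; limma adjusted p = 0.944). Acadm (ENSMUSG00000062908, chromosome 3, 153922357 to 153944632) stood at 88.2, 104, 147 and 114 FPKM in libraries K320E-skm 1 to 4, against 125, 149, 113 and 131 FPKM in libraries wild-type 1 to 4. Only K320E-skm 1 and 2 lay below all wild-type libraries. Its log2 fold change of −0.21 was the lowest of the 10 (95% interval −0.57 to 0.16; limma adjusted p = 0.570). Wild-type 2 held the highest Acadm of all libraries, in contrast to its low Acadvl.

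Hadh, the dehydrogenase of short and medium 3-hydroxyacyl chains (ENSMUSG00000027984, chromosome 3, 131233419 to 131272101), stood at 22.9, 32.4, 35.8 and 31.5 FPKM in libraries K320E-skm 1 to 4, against 38.4, 29.9, 33.3 and 38.9 FPKM in libraries wild-type 1 to 4. Its log2 fold change was −0.20 (SE 0.16; limma adjusted p = 0.583), with K320E-skm 1 apart below the other libraries. Hadhb, the thiolase subunit of the trifunctional protein of long chains (ENSMUSG00000059447, chromosome 5, 30155248 to 30184593), stood at 80.8, 91.0, 114 and 85.9 FPKM in libraries K320E-skm 1 to 4, against 97.1, 65.1, 106 and 116 FPKM in libraries wild-type 1 to 4. Here both extremes were wild-type libraries, and the log2 fold change was −0.03 (SE 0.21; limma adjusted p = 0.955). The ratio of Hadhb to Hadha, the subunit encoded on the other side of the shared stretch shown above, was 1.28 ± 0.157 over K320E-skm mice, against 1.34 ± 0.218 over wild-type mice (SD, n = 4 each; exact permutation p = 0.686). Etfdh, which passes electrons from the dehydrogenases to ubiquinone (ENSMUSG00000027809, chromosome 3, 79603788 to 79629500), stood at 25.8, 34.1, 43.7 and 36.6 FPKM in libraries K320E-skm 1 to 4, against 36.9, 31.4, 36.6 and 41.4 FPKM in libraries wild-type 1 to 4. Its log2 fold change was −0.08 (SE 0.17; limma adjusted p = 0.847).

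The 10 log2 fold changes had a median of −0.03, beside −0.14 over all tested genes, and 8 of the 10 lay above the median gene. Relative to that gene the values ran from −0.07 for Acadm to 0.28 for Acadvl. After the libraries were brought to a common median ratio, the median of the 10 was 0.15 and that of all genes 0.0027, with Acadvl at 0.32 (SE 0.22) and Acsl1 at 0.27 (SE 0.19), and no gene of the set passed (smallest unadjusted p 0.146, for Cd36). The signs of Fabp3, Cpt2, Hadhb and Etfdh turned with this rescaling. The outermost bounds of the 95% intervals as deposited were −0.61, for Fabp3, and 0.62, for Acadvl, on the log2 scale. For each gene, differences within its own interval were not resolved by 4 mice a genotype. In exact permutation tests of the FPKM, p ran from 0.229 for Hadh to 0.971 for Fabp3 and Cpt2 (n = 4 each). Without K320E-skm 4 the median of the 10 was −0.07, and no gene passed.

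**Figure D2:**
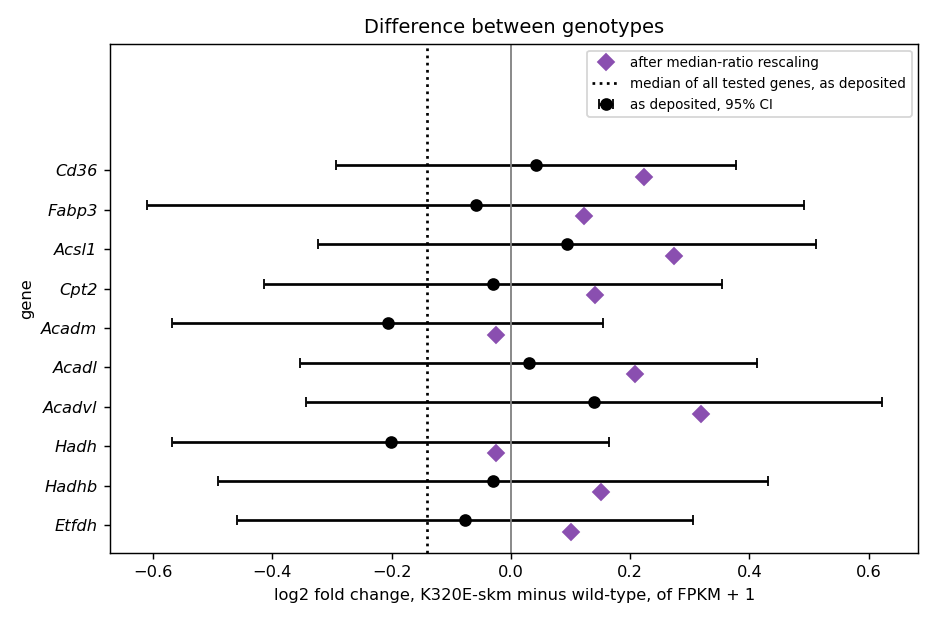
Log2 fold changes of FPKM + 1, K320E-skm minus wild-type, with 95% intervals from limma (n = 4 each), and the same after median-ratio rescaling (diamonds). All 10 intervals include 0, and the dotted line at −0.14 is the median of the 10521 tested genes.

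The 10 genes varied together from mouse to mouse. K320E-skm 1 was the lowest of the 8 libraries in 9 of the 10 genes, all but Hadhb, and K320E-skm 3 the highest in 7, all but Acadm, Hadh and Hadhb. How many of all tested genes were lowest or highest in these libraries was not counted. The median log2(FPKM + 1) of all tested genes was 2.32 in both K320E-skm 1 and K320E-skm 3, beside 2.75 in wild-type 1. On the log2 scale of FPKM + 1, the median deviation of the 10 genes from their own means was −0.44 in K320E-skm 1 and 0.33 in K320E-skm 3. It was −0.01 and −0.04 in K320E-skm 2 and 4, and between −0.13 in wild-type 2 and 0.18 in wild-type 4 among wild-type mice. These deviations depend on the scaling: with each library centred on its median gene they were −0.33, −0.03, 0.45 and 0.04 in libraries K320E-skm 1 to 4, against −0.26, −0.17, 0.03 and 0.20 in libraries wild-type 1 to 4. After median-ratio rescaling K320E-skm 3 was the highest library for all 10 genes, while the lowest was K320E-skm 1 for 5, wild-type 1 for 3 and wild-type 2 for 2. The SD was larger in K320E-skm than in wild-type mice for 9 genes and smaller for Hadhb. This was counted and not tested, and the 10 genes varied together, so they are not separate observations. Without K320E-skm 1 the median log2 fold change of the 10 was 0.09, without K320E-skm 3 it was −0.14, and without wild-type 2 −0.14. The number of genes above the median gene was 9, 4 and 5 in these fits.

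**Figure D3:**
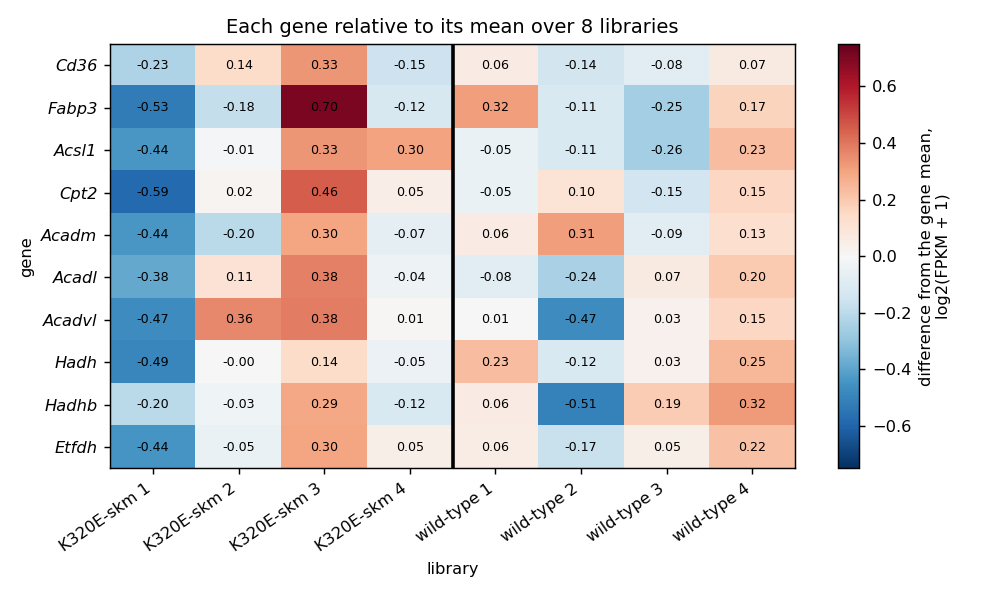
Deviation of each gene from its mean over 8 libraries, on the log2 scale of FPKM + 1, with K320E-skm libraries left of the line and wild-type libraries right of it. The column of K320E-skm 1 is below the mean for all 10 genes and that of K320E-skm 3 above it for all 10, with the highest single value, 0.70, in Fabp3.

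Markers of fibre type and of other cells varied over the same libraries. The 10 slow fibre genes summed to 111, 211, 326 and 295 FPKM in libraries K320E-skm 1 to 4, against 168, 194, 127 and 226 FPKM in libraries wild-type 1 to 4. Their sum was thus lowest in K320E-skm 1 and highest in K320E-skm 3, as were most of the fatty acid genes as deposited. The order of the other libraries differed between these sums. The 10 fatty acid genes summed to 601, 796, 1080 and 771 FPKM in libraries K320E-skm 1 to 4, against 867, 734, 762 and 906 FPKM in libraries wild-type 1 to 4. Myoglobin, Mb, which is high in oxidative fibres, was at a mean of 1733 ± 775 FPKM in K320E-skm mice, against 1768 ± 307 FPKM in wild-type mice (SD, n = 4 each). The 11 fast fibre genes other than Myh4, which is listed at 0 in some libraries, summed to 27402 to 35085 FPKM across K320E-skm and 36993 to 39911 FPKM in wild-type libraries, without overlap. With Myh4 the sums overlapped, at 27402 to 38050 FPKM across K320E-skm and 37092 to 43448 FPKM in wild-type libraries. Myh4 left the sums of K320E-skm 2, 3 and 4 and of wild-type 4 unchanged. It raised that of K320E-skm 1 from 35085 to 38050 FPKM. Of the 12 genes one by one, 6 were lower without overlap as deposited, against 9.59% of all tested genes. After rescaling the count was 0, against 2.94% of all tested genes. The sums were taken on the deposited scale only. The 10 endothelial genes summed to 73.2 to 95.5 FPKM across K320E-skm and 76.2 to 120 FPKM in wild-type libraries, with no gene listed at 0. The 7 adipocyte genes other than Fabp4 summed to 23.9 to 37.5 FPKM across K320E-skm and 8.35 to 119 FPKM in wild-type libraries, with 1 of them, Adrb3, at 0 in some libraries. The 9 macrophage genes summed to 49.9 to 138 FPKM across K320E-skm and 45.4 to 133 FPKM in wild-type libraries. Log2 fold changes were above 0 for 9 of 10 slow fibre and 2 of 12 fast fibre genes. The same held for 2 of 10 endothelial, 9 of 9 macrophage and none of the 6 adipocyte genes tested. The median of all tested genes was −0.14, and 10 slow fibre, 2 fast fibre, 5 endothelial, 9 macrophage and 1 adipocyte genes lay above it. None passed the threshold in limma. The part of fibre type and of these cells in the levels of the 10 genes was not tested.

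The profile that the 10 genes shared over the 8 libraries was compared with the other 9590 tested protein-coding genes, after each library was centred on its median gene. The most alike was Hadha, the alpha subunit of the trifunctional protein and no member of the set, with a Pearson's r of 0.989 over 8 libraries. Next came Ldhb, the heart-type lactate dehydrogenase subunit, with an r of 0.956, the epoxide hydrolase gene Ephx2 with 0.954, the phosphatase gene Ppm1b with 0.948 and the threonine aldolase gene Tha1 with 0.947. The least alike were the histone gene Hist1h4d with −0.963, Ldb1 with −0.957 and Wbp2 with −0.950. Within the set, r with the mean of the other 9 genes was highest for Etfdh, at 0.972, and Acadl, at 0.952, and lowest for Acadm, at 0.659, and Hadhb, at 0.743. These values describe 8 libraries that share one scaling, and the named genes are the extremes of a long ranking over few points, so they carry no test. For other sets of genes such an r was not computed.

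By sex label, 8 of the 10 genes were higher in K320E-skm than in wild-type females and 9 were lower in K320E-skm than in wild-type males. Of all tested genes 37.8% were higher in K320E-skm females and 86.2% lower in K320E-skm males, so the count in males is near the background. After median-ratio rescaling 9 of the 10 were higher in females, beside 50.4% of all tested genes. In males the direction turned, with 7 higher and 3 lower, beside 50.9% of all tested genes higher. These counts rest on 2 libraries of each genotype and label, and the 10 genes varied together, so they are not separate observations. K320E-skm 3, labelled female, was the highest library for all 10 genes after rescaling. The counts were not repeated without K320E-skm 4. For Acadvl the mean was 112 FPKM in K320E-skm females, against 79.3 FPKM in wild-type females, and 74.5 FPKM in K320E-skm males, against 87.7 FPKM in wild-type males (n = 2 each). The interaction of genotype and sex label in limma was called for none of the 10 genes, where 2 of all tested genes were called (0.0190%), the small nucleolar RNA genes Snord65 and Gm26202, which are listed at 0 in some libraries. The smallest unadjusted interaction p of the set was 0.0648, for Acadvl. The male libraries of K320E-skm include the one whose label was contradicted, and the other, K320E-skm 1, was below both wild-type males in all 10 genes as deposited and in 5 after rescaling. Male minus female, the log2 difference was below 0 for all 10 genes, as it was for 41.3% of all tested genes, from −0.37 for Cpt2 to −0.03 for Hadhb, and none had an unadjusted p under 0.05. Without K320E-skm 4 the range was −0.47 for Cpt2 to −0.0016 for Hadhb.

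No further gene of the pathway was called either. Of 77 further genes in 7 lists, 73 passed the expression filter and none passed the threshold of limma (smallest adjusted p 0.295; 10 with an unadjusted p under 0.05, which is 13.7%, near the 13.1% of all tested genes). Their median log2 fold change was −0.04, beside −0.14 for all tested genes. Of the 73 genes, 31 lay above 0, 42 below it and 51 above the median gene. Values above 0 numbered 9 of 16 in uptake and lipolysis (median 0.05), 5 of 14 in activation and carnitine transfer (median −0.12) and 6 of 15 in mitochondrial oxidation (median −0.03). They numbered 2 of 10 in peroxisomal oxidation (median −0.05), 7 of 13 among regulators (median 0.03) and 2 of 3 in ketone body use (median 0.16). Above the median of all tested genes lay, in the same order of lists, 11, 9, 10, 8, 10 and 2 genes. Hadha was at 73.6 ± 17.1 FPKM in K320E-skm mice, against 71.3 ± 9.32 FPKM in wild-type mice (SD, n = 4 each). Cpt1b, the outer-membrane palmitoyltransferase of muscle, was at 72.1 ± 13.1 FPKM in K320E-skm mice, against 71.9 ± 6.19 FPKM in wild-type mice. Etfa and Etfb, the subunits of the flavoprotein that feeds Etfdh, had log2 fold changes of −0.20 (SE 0.20) and −0.14 (SE 0.17). Lpl, the lipase that frees fatty acids from lipoproteins, was at −0.12 (SE 0.26), the mitochondrial thiolase gene Acaa2 at −0.03 (SE 0.23) and Oxct1, of ketone body use, at −0.19 (SE 0.17). In peroxisomes, where very long chains are shortened, Scp2, of sterol carrier protein and a thiolase, was at −0.11 (SE 0.14) and Hsd17b4, of the D-bifunctional protein, at −0.04 (SE 0.14).

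Genotypes did not overlap for 6 of these 73 genes, 2 of them higher (2.74%, against 0.333% of all tested genes) and 4 lower (5.48%, against 9.59%), and none passed limma over all genes. Acot2, a mitochondrial thioesterase that splits acyl-CoA, was at 9.46, 7.72, 13.5 and 6.58 FPKM in libraries K320E-skm 1 to 4, against 5.21, 4.09, 3.58 and 5.03 FPKM in libraries wild-type 1 to 4 (log2 fold change 0.88, SE 0.20, limma adjusted p = 0.295). Gpihbp1, the endothelial anchor of lipoprotein lipase, was at 29.5 ± 3.31 FPKM in K320E-skm mice, against 23.3 ± 2.73 FPKM in wild-type mice (SD, n = 4 each). Both were without overlap after rescaling as well. The 4 lower genes were Acadsb, the dehydrogenase of short branched chains, Prkaa2, a catalytic subunit of AMP-activated protein kinase, the thioesterase gene Acot13 and the carnitine acetyltransferase gene Crat. Acadsb was at 33.5 ± 3.67 FPKM in K320E-skm mice, against 44.8 ± 2.75 FPKM in wild-type mice. Prkaa2 was at 15.7 ± 0.652 FPKM in K320E-skm mice, against 20.0 ± 1.54 FPKM in wild-type mice. Crat was separated only narrowly, with 65.269 FPKM as its highest K320E-skm value and 65.272 FPKM as its lowest wild-type value. None of the 4 lower genes was without overlap after rescaling. There, 5 genes were higher without overlap (6.85%, against 2.93% of all tested genes) and 1 lower (1.37%, against 2.94%). Besides Acot2 and Gpihbp1 these were Slc27a4, Ppard, Ppargc1a and, lower, Abcd2, named after their values were seen. Ppargc1a, a coactivator of oxidative genes, was at 12.1, 40.7, 13.7 and 9.58 FPKM in libraries K320E-skm 1 to 4, against 7.16, 10.6, 7.01 and 9.41 FPKM in libraries wild-type 1 to 4, as deposited. Its mean in K320E-skm rests mostly on library 2, and the part of Ppargc1a in the levels of the 10 genes was not tested.

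**Figure D4:**
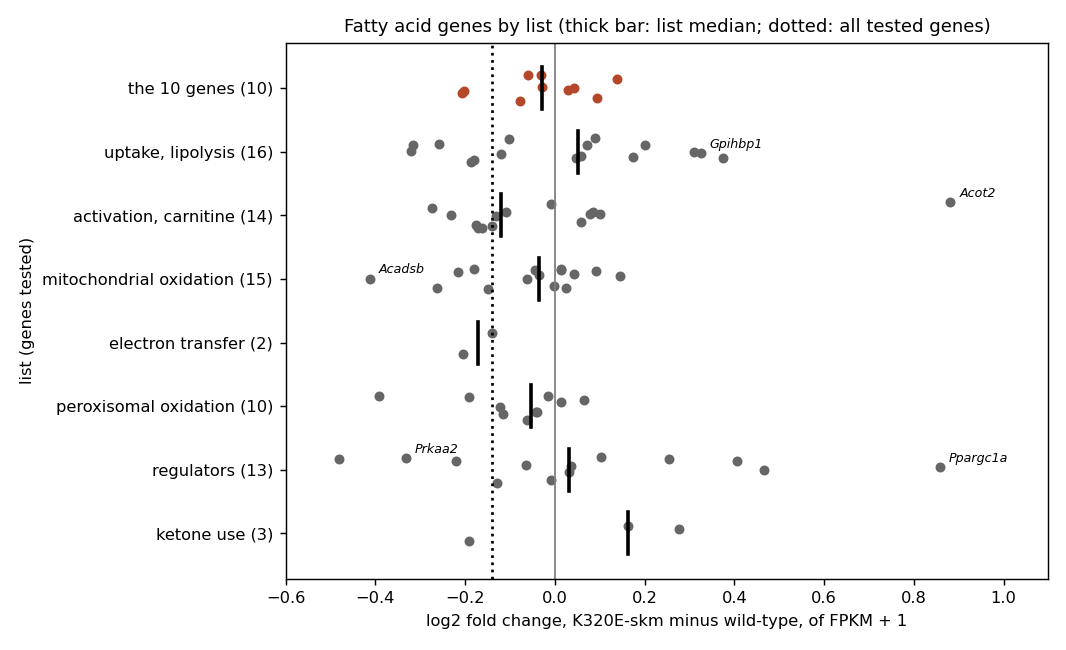
Log2 fold changes of FPKM + 1, K320E-skm minus wild-type, of the 10 genes and of 73 further genes in 7 lists; each point is a gene, thick bars are list medians and the dotted line is the median of all tested genes. The 10 genes lie between −0.21 and 0.14, and Acot2 lies farthest to the right at 0.88.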

How the data were processed

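The authors deposited a table of FPKM per gene with a column for each library. CASAVA, TopHat2 2.0.10, Cufflinks 2.1.1 and build mm10 are named in the submitters' processing notes. Libraries were made with a stranded kit, per the labels' protocols; neither the annotation nor the strand setting of the counting is stated there. Each library carries a number of its own in the labels, though no label states that these are separate mice, and p-values cover the spread between samples. Column names matched all 8 samples. GENCODE M21 (GRCm38) gave symbols and coordinates and held 47864 of the IDs.

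The 10521 genes that reached 1 FPKM in 4 or more of the 8 libraries were tested as log2(FPKM + 1), which understates changes of low genes, with limma 3.58.1 (R 4.3.3), terms for sex label and genotype, and empirical Bayes with a trend (two-sided, Benjamini-Hochberg adjusted p under 0.05). The procedure was run on simulated data with noise drawn separately for each gene. How it behaves where genes vary together was therefore not tested. For single values, exact two-sided permutation was run over 70 assignments, whose smallest p is 0.0286. Cufflinks divides fragments among overlapping genes, and exons of Fabp3, Acadvl, Acsl1 and Etfdh overlap another gene's, which leaves these less certain. Genes named beside the 10 were, of each pathway list, the 3 of highest mean FPKM and up to 4 without overlap between genotypes, from each marker list up to 3, and the 5 most and 3 least alike in profile; not all of these are printed. All 5 muscle markers are named as the content of their sum, and Myh4 and Adrb3 for their listed 0; these were chosen after their values were seen. Members, lists and tests were chosen with earlier results of these data known. Of the listed markers, 2 were not analysed here, and 1 pathway gene is not reported here. Python 3.11.15 with pandas 2.3.3 and matplotlib 3.10.9 served for tables and plots.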

Additional observations from a re-analysis of the deposited data

Results flagged for a closer look

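Of 94 groups of 4 libraries examined, 4 had 1 library far from the other 3; chance gives about 1 in 20. The ratio of Acadm to Acadvl was 2.39 in wild-type 2, against 1.27 to 1.44 in the other wild-type libraries. Got2, a mitochondrial transaminase that also binds fatty acids at the membrane, was at 54.1 FPKM in K320E-skm 1, against 80.8 to 82.8 FPKM in the others of that genotype, and at 72.2 FPKM in wild-type 4, against 63.2 to 63.5 FPKM in the other wild-type libraries. Acot13 was at 59.5 FPKM in wild-type 1, against 54.0 to 54.3 FPKM in the others.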

How the results depend on the processing

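No gene of the set, and none of the further pathway genes, passed the threshold under any alternative run: quantile normalization, median-ratio rescaling, robust empirical Bayes, array weights, the fit without the sex term, a pseudocount of 0.1, a filter at 5 FPKM or none, protein-coding genes only, each library left out, the replicate block, and, chosen after the data were seen, rescaling to the sum of nuclear protein-coding genes and no sex term without K320E-skm 4. Log2 fold changes near 0 turned sign; the cause was not tested. Under median-ratio rescaling, quantile normalization and rescaling to nuclear genes in turn, Fabp3 was 0.12, 0.010 and 0.11, Cpt2 0.14, 0.13 and 0.13, Hadhb 0.15, 0.077 and 0.14, and Etfdh 0.10, 0.090 and 0.093. With array weights Fabp3 was 0.077, Cpt2 0.017 and Acadl −0.022. Without K320E-skm 4 and the sex term Hadhb was 0.0042. With each library left out, the ranges were −0.045 to 0.12 for Cd36, −0.29 to 0.11 for Fabp3, −0.052 to 0.24 for Acsl1, −0.14 to 0.12 for Cpt2, −0.11 to 0.15 for Acadl, −0.064 to 0.31 for Acadvl, −0.25 to 0.086 for Hadhb and −0.19 to 0.056 for Etfdh. Acadm and Hadh stayed below 0 in all of these fits, though close to it in some. Under median-ratio rescaling Acadm was −0.025 (SE 0.17) and Hadh −0.024 (SE 0.15). Under quantile normalization they were −0.12 and −0.039, and under rescaling to nuclear genes −0.033 and −0.032.

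Over all genes, limma called 1 gene with no filter, 1 with a filter of 5 FPKM, 5 with array weights, 0 among protein-coding genes, 4 without K320E-skm 4 and the sex term, and 2 to 3 with each library left out. The interaction called 2 to 5 genes with each library left out. With a replicate block replacing the sex term, limma called 2 genes over all and left Acadm at −0.21 (SE 0.18). Correlations of same-numbered deviations were 0.16, 0.023, 0.044 and 0.040. K320E-skm 4 and wild-type 2 matched another number best, and every other library matched its own number best. Whether the numbers pair the samples cannot be decided from these values.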
